A study of Macaca fascicularis with 22 samples.

Results

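HOX genes encode homeodomain transcription factors that lie in clusters and are switched on in the order of their place in the cluster along the axis from head to tail and along the limb. The genes with low numbers act nearest the head and those with high numbers towards the tail, the genital region and the far end of the limbs, and connective tissue cells keep much of this pattern after birth. Their proteins bind DNA together with the PBX and MEIS cofactors, and Polycomb and MLL proteins hold the genes silent or active. A set of 10 HOX genes of the trunk and limbs was defined by human RefSeq accession, namely HOXA5, HOXA9, HOXA10, HOXA11, HOXA13, HOXC6, HOXC10, HOXD8, HOXD9 and HOXD10. Of the 10 accessions, 6 were carried by probes of the array, each by 1 probe, and all 6 passed the filter on dim probes, out of 20217 probes and 17117 kept. These were HOXA5 (NM_019102), HOXA9 (NM_152739), HOXA10 (NM_018951), HOXA11 (NM_005523), HOXC10 (NM_017409) and HOXD9 (NM_014213). HOXA13, HOXD8, HOXD10 and the listed accession of HOXC6 were not analysed here.

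The samples were tissues of cynomolgus macaque (Macaca fascicularis) neonates of lower birth weight (LBW, the 5th to the 25th centile) and average birth weight (ABW, the 50th to the 75th centile), all within the normal range. The sample titles name the ABW arrays Control and the LBW arrays Treated, but per the study growth was not manipulated by experiment. There were 4 ABW and 4 LBW arrays of skeletal muscle, named as biceps in the sample titles and as biceps femoris, a thigh muscle, in the study's methods, 3 and 3 labelled as liver, and 4 and 4 labelled as umbilical cord. The study describes the neonates as female, and per its methods they were offspring of 1 sire, and muscle and liver came from the same animals. No source used here pairs the muscle and liver arrays by animal, and the labels place sampling at birth while the methods place that of liver and muscle some days later.

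A level is the log2 signal of a probe minus the log2 75th percentile of its array, so that 0 is that percentile, and it was compared for 1 probe across arrays but not between genes. The 75th percentile lay between 315.5 and 2390 signal units (median 732.1), and 14590 to 17890 probes per array were flagged by the scanner software as well above background. The dimmest flagged probe of an array lay at a level between -9.22 and -6.10. The ABW arrays of skeletal muscle shared 1 slide and the LBW arrays another, so that in muscle slide cannot be told apart from birth weight. No slide held muscle arrays together with arrays of another label. In the comparisons of muscle with the other labels, slide therefore cannot be told apart from tissue. Of the cord-labelled arrays the LBW arrays were on slide 5 and the ABW arrays on slides 4 and 6, slide 6 having another version of the scanner software, and no slide held both groups.

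The tissue labels were checked against marker genes. All 21 hepatocyte genes measured, among them ALB and APOA1, were higher on every cord-labelled array than on every other array, with a list mean of 5.54 to 6.38 there and of -7.00 to -6.04 on the liver-labelled arrays, where 9 of the 21 were not above background on any array. All 11 matrix and stromal genes, among them COL1A1 and LUM, were highest on every liver-labelled array, with a list mean of 5.47 to 5.91 against -0.21 to 0.82 on the cord-labelled arrays. The labels liver and umbilical cord thus went against these markers, and both are used here as names of arrays only. All 13 striated muscle genes were highest on every skeletal muscle array, at a list mean of 6.54 to 6.99. On the muscle arrays the hepatocyte list ranged from -6.35 to -1.11, highest in ABW replicate 3, and among the cord-labelled arrays the striated muscle list was highest in ABW replicate 2, at -2.27.

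**Figure D1:**
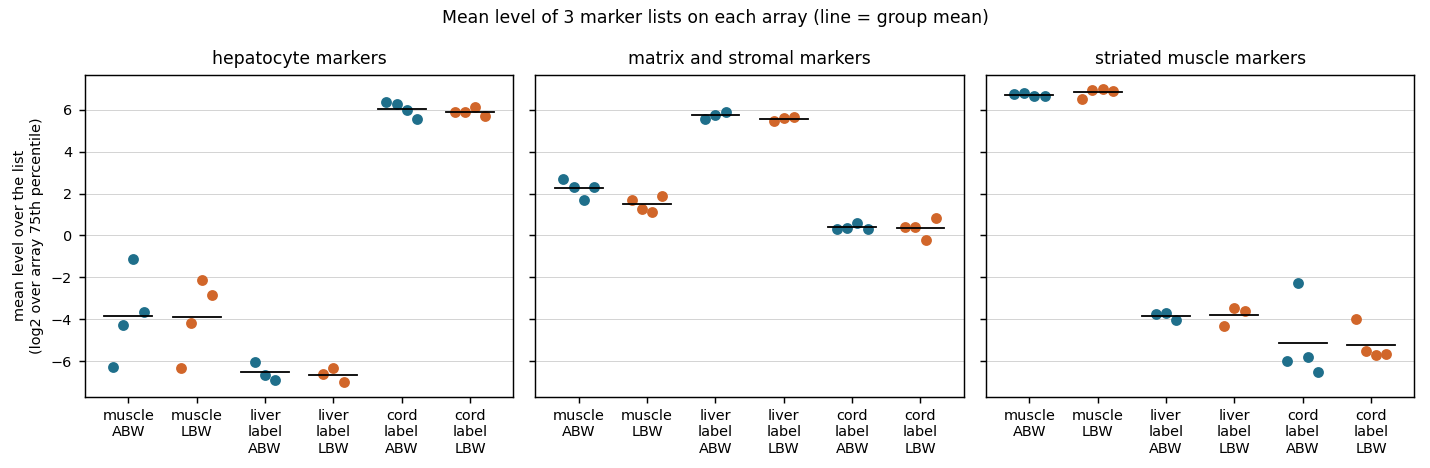
Mean level of the hepatocyte, matrix and stromal, and striated muscle lists (vertical axes, log2 over the array's 75th percentile) on each of the 22 arrays by group, with group means as lines. The hepatocyte list is highest on the cord-labelled arrays, at 5.54 or more, and the matrix list on the liver-labelled arrays, at 5.47 or more.

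All 6 HOX genes were higher on the liver-labelled arrays than on the cord-labelled arrays, and 5 of 6, all but HOXC10, were higher in skeletal muscle than on the cord-labelled arrays. The share of all probes called at an adjusted p under 0.05 was 66.9% in the first comparison (31.3% higher and 35.6% lower) and 64.9% in the second (35.8% higher and 29.1% lower), so that a call is common here and the count of 6 in 1 direction is to be read against those shares. The median difference of the 6 genes was 5.47 on the log2 scale between liver-labelled and cord-labelled arrays, against -0.13 over all probes. Between skeletal muscle and the cord-labelled arrays it was 5.82, against 0.11. With dim arrays raised to the dimmest signal flagged there, the medians of the 6 genes were 4.50 and 4.87. The arrays of the 2 labels did not overlap, with the cord-labelled arrays lower, for 6 of 6 genes in the first comparison (19.3% of all probes in that direction) and for 4 of 6 in the second (17.9%). In bulk tissue fewer cells of a type and less RNA per cell cannot be told apart.

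HOXA9, HOXA10 and HOXA11 are direct neighbours near the 5′ end of the HOXA cluster, before HOXA13, in RefSeq's order of genes in the assembly T2T-MFA8v1.1. They act in the hind trunk and in the upper and middle parts of the limb. HOXA9 lay at 1.39 to 2.26 (median 1.83) on the 8 skeletal muscle arrays, at 0.29 to 1.2 (median 0.77) on the 6 liver-labelled arrays and at -8.50 to -5.93 (median -7.52) on the 8 cord-labelled arrays, of which 1 was above background. The 3 ranges did not overlap. The muscle mean exceeded that of the liver-labelled arrays by 1.04 ± 0.28 (SE) and that of the cord-labelled arrays by 9.26 ± 0.26, with limma adjusted p of 0.00272 and 4.30e-17. With each dim array raised to the dimmest signal flagged there, the difference from the cord-labelled arrays was 8.73. With the arrays scaled to spike-in controls the first of these differences was 0.31, with an adjusted p of 0.719.

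HOXA10 lay at -1.41 to -0.73 (median -1.24) in skeletal muscle and at -1.94 to -1.54 (median -1.69) on the liver-labelled arrays, all of them above background. On the cord-labelled arrays it was not well above background on any of 8, with measured values of -10.73 to -7.26. HOXA10 was at least 64.9-fold higher in skeletal muscle and at least 44.9-fold higher on the liver-labelled arrays, taking for each dim array the higher of the gene's own signal and the dimmest signal flagged there (adjusted p 4.67e-15 and 6.68e-14). Every muscle array was above every liver-labelled array, but the difference of 0.53 ± 0.30 (SE) had an adjusted p of 0.127, and with spike-in scaling it was -0.20. The adjusted p was 0.0207 without umbilical cord ABW replicate 4, an array of neither tissue that enters through the shared estimate of the spread, 0.000348 with quantile normalization and 0.0487 with normexp background correction.

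HOXA11, which patterns the middle limb and the uterus, stood in another order. It lay at 0.43 to 1.03 (median 0.67) on the liver-labelled arrays and at -2.19 to -0.92 (median -1.40) in skeletal muscle, without overlap. The cord-labelled arrays, at -10.85 to -7.13, were not well above background on any of 8. The level on the liver-labelled arrays was 4.63 times that in muscle, a difference of muscle minus liver label of -2.21 ± 0.34 on the log2 scale (adjusted p 9.20e-06), and it was at least 240.4-fold that on the cord-labelled arrays (adjusted p 3.48e-15). In muscle HOXA11 was at least 51.9-fold higher than on the cord-labelled arrays. Between skeletal muscle and the liver-labelled arrays HOXA9 was thus higher in muscle, a call lost under spike-in scaling, and HOXA11 lower, while HOXA10, which lies between them in the cluster, was not called.

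HOXA5, which acts in the neck, the lung and the fore part of the trunk, varied most within muscle. Its ABW arrays of muscle held -4.95, -2.44, -1.74 and -3.10 for replicates 1 to 4 and its LBW arrays -2.64, -3.19, -3.02 and -1.22. The 6 liver-labelled arrays lay at -4.06 to -2.58 (median -3.30), inside the range of muscle, and muscle minus liver label was 0.53 ± 0.43 (SE, adjusted p 0.286). Without skeletal muscle ABW replicate 1, the lowest array, this difference was 0.85 with an adjusted p of 0.0468. On the cord-labelled arrays HOXA5 lay at -8.21 to -6.34 (median -7.22) and 3 of 8 were above background. The mean there was lower than in muscle by 4.49 ± 0.40 on the log2 scale and lower than on the liver-labelled arrays by 3.96 ± 0.43, with adjusted p of 3.82e-09 and 8.74e-08.

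HOXC10, a gene of the lumbar region and the hind limb, was above background on all 6 liver-labelled arrays, at -5.19 to -3.16 (median -3.70), on 0 of 8 muscle arrays and on 1 of 8 cord-labelled arrays. The muscle arrays measured -8.61 to -6.70 and the cord-labelled arrays -9.52 to -6.32, so that the 6 liver-labelled arrays stood above all others. HOXC10 was at least 8.19-fold higher on the liver-labelled arrays than in muscle (adjusted p 4.67e-08), and its mean exceeded that of the cord-labelled arrays by 4.15 ± 0.42 (SE, adjusted p 3.13e-08), or by 3.14 with the 7 dim arrays raised to the dimmest signal flagged there. HOXC10 passed the filter on dim probes through the liver-labelled arrays alone, which favours this direction. With normexp background correction, which pulls dim signals together, the adjusted p were 0.0977 and 0.0543. Between muscle and the cord-labelled arrays, where nearly all arrays were dim, the difference was 0.05 with a 95% interval of -0.77 to 0.86 (adjusted p 0.925).

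HOXD9, a trunk and upper limb gene of the HOXD cluster, was the one gene of the 6 that was above background on all 22 arrays. It lay at -3.02 to -2.09 (median -2.50) on the liver-labelled arrays, at -3.53 to -2.44 (median -3.08) in skeletal muscle and at -5.22 to -3.48 (median -4.76) on the cord-labelled arrays. Muscle and the liver-labelled arrays overlapped and differed by -0.51 ± 0.26 (SE, adjusted p 0.0979). With the 75th percentile taken over the probes always above background the difference was -0.61, with an adjusted p of 0.0467. The cord-labelled arrays were lower than both, by 2.0 ± 0.26 against the liver-labelled arrays without overlap, and by 1.49 ± 0.24 against muscle, where 1 array, LBW replicate 1, reached into the muscle range. The adjusted p were 1.31e-06 and 2.00e-05, and with spike-in scaling the difference from muscle was 0.31 with an adjusted p of 0.625.

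**Figure D2:**
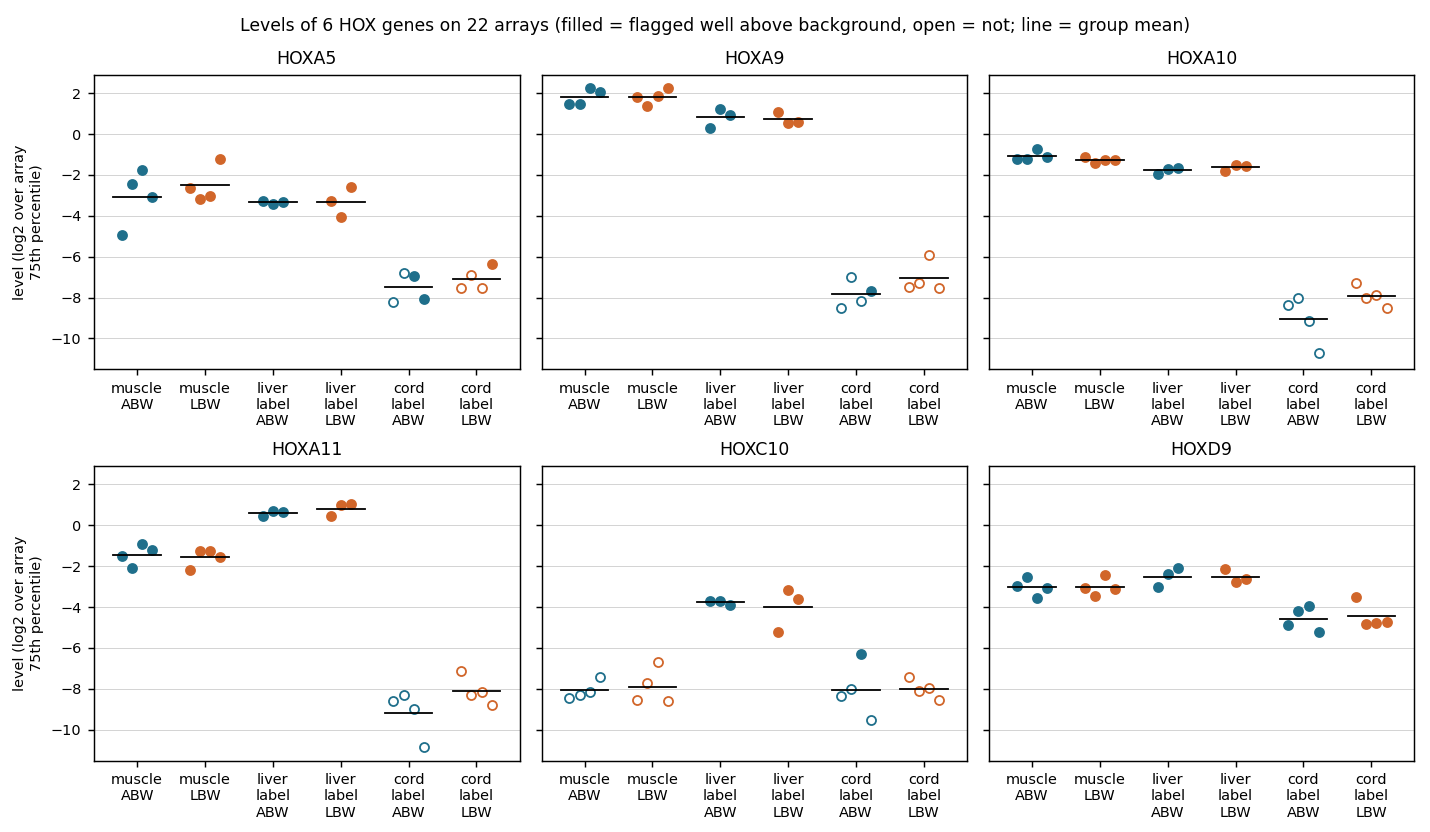
Level of HOXA5, HOXA9, HOXA10, HOXA11, HOXC10 and HOXD9 (vertical axes, log2 over the array's 75th percentile) on each of the 22 arrays by group, ABW in blue and LBW in orange. Filled points are flagged well above background, open points are not, and lines are group means. HOXA9, HOXA10 and HOXA11 fall to -5.93 or below on the cord-labelled arrays, HOXC10 is highest on the liver-labelled arrays, and ABW and LBW points overlap in every panel.

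Between skeletal muscle and the liver-labelled arrays 3 of the 6 genes were called, HOXA9 higher in muscle and HOXA11 and HOXC10 lower, where 65.3% of all probes were called (37.1% higher and 28.1% lower in muscle). Arrays did not overlap for 2 of 6 genes with muscle higher (23.4% of all probes), HOXA9 and HOXA10, and for 2 of 6 with muscle lower (19.1%), HOXA11 and HOXC10. Slide 4 held 2 LBW liver-labelled arrays and 2 ABW cord-labelled arrays. Within that slide all 6 genes were again higher on the liver-labelled arrays, with adjusted p of at most 0.0095, and birth weight differs along with the label there. HOXD9 differed by 1.83 on the log2 scale. The other 5 genes were not above background on either cord-labelled array of the slide, and were at least 11.5-fold (HOXC10) to at least 243.0-fold (HOXA11) higher on the liver-labelled arrays. This within-slide comparison was added after the data had been seen.

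The other HOX genes give the setting of these 6. In all 33 HOX probes were analysed, 1 for each of 33 genes, and 30 were kept. On all arrays of a label 29 of 33 were above background for the liver-labelled arrays, 22 for skeletal muscle and 10 for the cord-labelled arrays. Of the 24 kept HOX genes outside the set, 16 were higher and 0 lower on the liver-labelled arrays than on the cord-labelled arrays (31.3% and 35.6% of all probes), with a median difference of 1.1. Between muscle and the cord-labelled arrays 16 were higher and 1, HOXC4, lower (35.8% and 29.1% of all probes), with a median of 1.25. Between muscle and the liver-labelled arrays 6 were higher and 11 lower (37.1% and 28.1%), and the 17 called of 24 are near the 65.3% of all probes called.

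The genes of the HOXC cluster were lower in muscle than on the liver-labelled arrays at 7 of 8 kept probes and higher at 0, where 28.1% of all probes were lower. HOXC10 and HOXC13 were kept through the liver-labelled arrays alone, so that the filter favours this direction for both. HOXC6, measured here by another transcript accession (NM_153693) than that of the set, lay at 2.29 to 2.97 on the 6 liver-labelled arrays. Its mean in skeletal muscle was lower by 4.47 ± 0.16 (SE, adjusted p 7.26e-15), and that on the cord-labelled arrays was lower by 8.67 ± 0.16 (adjusted p 1.13e-18). HOXC8 and HOXC9, genes of the thoracic region, were lower in muscle than on the liver-labelled arrays by 4.02 ± 0.25 and 4.53 ± 0.32. HOXC13, a gene of hair and nail, was above background on all 6 liver-labelled arrays and on none of muscle, and was at least 3.38-fold higher on the former, although with normexp background correction muscle was higher by 0.012. HOXC4 and HOXC11 were lower in muscle by 1.22 and 0.98, with overlap of the arrays.

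The HOXA cluster was split. Of its 9 kept probes 4 were higher in muscle than on the liver-labelled arrays, HOXA4, HOXA6, HOXA7 and HOXA9, and 2 were lower, HOXA2 and HOXA11. HOXA4, a gene of the neck region, was higher in muscle by 4.12 ± 0.28 (SE, adjusted p 1.09e-10) and HOXA7 by 2.09 ± 0.23 (adjusted p 1.65e-07). HOXA6 was higher by 0.72 ± 0.29, a difference of -0.014 under spike-in scaling. Against the cord-labelled arrays all 9 kept HOXA probes were higher in muscle and 7 of 9 were higher on the liver-labelled arrays. In the HOXD cluster HOXD11, an outer limb gene, was above background on all 6 liver-labelled arrays and on no other array, at least 7.73-fold higher than in muscle and at least 9.38-fold higher than on the cord-labelled arrays. HOXD11 too was kept through the liver-labelled arrays alone, so that the filter favours this direction. HOXD1 was higher on the liver-labelled arrays than in muscle by 2.01 ± 0.33 and at least 27.6-fold higher than on the cord-labelled arrays. Of the 6 kept HOXD probes these 2 were lower in muscle than on the liver-labelled arrays. A further 1, HOXD3, was higher in muscle, a difference of -0.24 under spike-in scaling. HOXC12 and HOXD12 were not above background on any array. Of the HOXB genes, HOXB2 was higher on the liver-labelled arrays than in muscle by 0.94 ± 0.23, HOXB13, a gene of the tail end, was higher in muscle by 1.76 ± 0.28, and HOXB1 was higher in muscle by 1.90 ± 0.24 but above background on only 5 of 8 muscle arrays. HOXB1 was kept through the LBW muscle arrays alone, so that the filter favours this direction. HOXB3 was higher on the liver-labelled arrays by 1.06 ± 0.24, though with normexp background correction it was higher in muscle by 0.072.

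**Figure D3:**
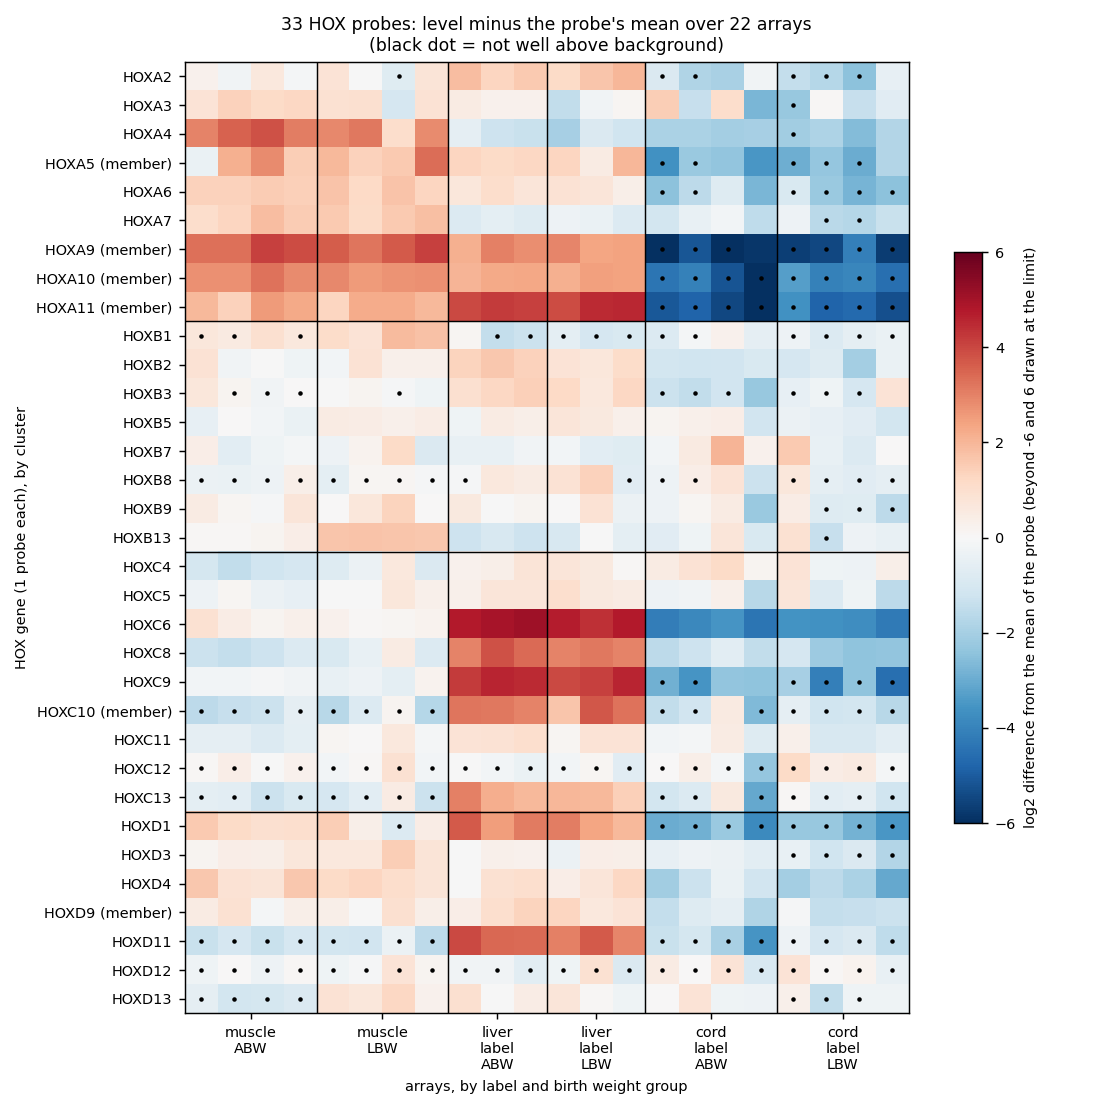
Level of each of 33 HOX probes (rows, ordered by cluster and number) minus its own mean, on 22 arrays (columns, by label and birth weight group), in log2 units by colour. Black dots mark arrays where the probe was not well above background. The cord-labelled arrays carry the most dots and the lowest HOXA9, HOXA10 and HOXA11, and the liver-labelled arrays the highest HOXC6, HOXC8, HOXC9, HOXC10 and HOXD11.

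Of the cofactors of HOX proteins analysed 4 probes were kept, and 4 of 4 were higher on the liver-labelled arrays than on the cord-labelled arrays (31.3% of all probes) and lower in muscle than on the liver-labelled arrays (28.1%). MEIS1 lay at 0.76 to 0.98 on the liver-labelled arrays, and was lower in muscle by 3.36 ± 0.21 (SE, adjusted p 2.30e-11). MEIS2 was lower in muscle by 5.54 ± 0.37, PBX3 by 2.59 ± 0.21 and PBX4 by 1.26 ± 0.23. The direction of MEIS1, MEIS2, PBX3 and PBX4 in this comparison was that of HOXA11 and of 7 of 8 kept HOXC probes, and not that of HOXA9. Between muscle and the cord-labelled arrays PBX3 was higher in muscle by 0.86 (35.8% of all probes were higher). MEIS2 was lower in muscle by 3.62 (29.1% lower), and MEIS1 and PBX4 were not called.

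Of 6 regulators of HOX clusters 3 were called between muscle and the liver-labelled arrays, where 65.3% of all probes were. BMI1, a Polycomb protein, was higher in muscle by 1.07 ± 0.14 (SE) and CTCF, which insulates domains within the clusters, by 0.69 ± 0.15, the latter being -0.046 under spike-in scaling. MLL, the methyltransferase that keeps HOX genes active, was lower in muscle by 0.87 ± 0.25. CDX2, an activator of HOX genes in the hind embryo and the gut, was above background on 4 of 8 cord-labelled arrays and on no other array. The ABW arrays of that label alone carried CDX2 past the filter. The Polycomb gene SUZ12 was higher on the liver-labelled arrays than on the cord-labelled arrays by 0.61 ± 0.17.

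All 4 genes of limb position were called between muscle and the liver-labelled arrays, where 65.3% of all probes were. TBX5, which specifies the fore limb, was higher in muscle by 1.85 ± 0.47 (SE, adjusted p 0.00181), lay at -6.11 to -4.45 there and was above background on all 8 muscle arrays, on 2 of 6 liver-labelled arrays and on 1 of 8 cord-labelled arrays. TBX5 was kept through the muscle arrays alone, so that the filter favours this direction. PITX1, which specifies the hind limb, lay at 1.61 to 2.37 on the liver-labelled arrays and was lower in muscle by 3.27 ± 0.41 (adjusted p 7.78e-07). PITX1 was nonetheless above background on all 8 muscle arrays, at -2.95 to -0.26. ISL1, which acts in the hind limb field and in the genital bud, was above background on all 6 liver-labelled arrays and on 1 of 8 muscle arrays. It was lower in muscle by 6.20 ± 0.43, or by 5.84 with the dim arrays raised to the dimmest signal flagged there. TBX4, a further hind limb gene, was lower in muscle by 0.77 ± 0.26, with overlap, and was above background on all 8 muscle arrays. HOXC10, PITX1 and ISL1 were each highest on the liver-labelled arrays, as were HOXA11, MEIS1, MEIS2, PBX3 and all 11 matrix and stromal genes. Against muscle alone, 19.1% of all probes did not overlap in this direction.

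The birth weight comparison asked whether these genes differed between LBW and ABW neonates within each label. With limma and an adjusted p under 0.05, 0 of 6 were called in skeletal muscle (0.0% of all probes), 0 of 6 on the liver-labelled arrays (0.0%) and 0 of 6 on the cord-labelled arrays (0.625%). At an unadjusted p under 0.05 the count was likewise 0 of 6 in each, where 14.7%, 5.99% and 8.94% of all probes passed. The mean of the 3 differences (0 of 6, 0.888% of all probes) and the interaction of birth weight with tissue label (0 of 6, 1.01%) gave no call either. At the threshold of the methods' t-test, a p under 0.05 before adjustment together with a difference of at least 1.5-fold, 0 of 6 passed in each label, and after Benjamini-Hochberg adjustment 0 of 6. ABW and LBW arrays overlapped for all 6 genes in every label, while 10.5% of all probes in muscle, 12.0% on the liver-labelled arrays and 5.85% on the cord-labelled arrays did not overlap.

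The intervals show what differences the arrays leave possible. In skeletal muscle LBW minus ABW was 0.01 for HOXA9 with a 95% interval of -0.58 to 0.60, -0.18 for HOXA10 with -0.59 to 0.23, and -0.13 for HOXA11 with -0.82 to 0.55. HOXD9 gave -0.0048 with -0.64 to 0.63. The interval of HOXA5 was the widest in muscle, 0.54 with -0.99 to 2.08, and its exact permutation p was 0.60 (two-sided, the smallest possible with 4 against 4 arrays being 0.0286). Without ABW replicate 1 the HOXA5 difference was -0.0885, so its sign rested on that array. HOXC10 was dim on all 8 muscle arrays and no fold is given.

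On the liver-labelled arrays LBW minus ABW ranged from -0.22 for HOXC10 to 0.21 for HOXA11 over the 6 genes. HOXA10 had the narrowest interval, 0.14 with -0.30 to 0.58, and HOXC10 the widest, with -1.44 to 1.0, its LBW replicate 1 lying at -5.19 and the other 5 arrays at -3.92 to -3.16. With 3 against 3 arrays the smallest exact permutation p is 0.10, and the 6 exact values lay between 0.30 and 1.0. Slide 3 held the 3 ABW arrays and LBW replicate 1, and within it HOXA9, HOXA10, HOXA11 and HOXD9 changed sign, at 0.27, -0.047, -0.17 and 0.37, none of them called.

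On the cord-labelled arrays the differences were read on dim signals for 5 of the 6 genes. HOXD9, the gene above background on all 8, gave 0.10 with an interval of -0.81 to 1.01. HOXA9 held -8.50, -6.98, -8.15 and -7.67 on the ABW arrays and -7.49, -7.28, -5.93 and -7.55 on the LBW arrays, a difference of 0.76 with -0.24 to 1.77 (limma adjusted p 0.634), and 1 of these 8 arrays was above background. HOXA5 gave 0.43 with -0.53 to 1.39 and HOXC10 0.05 with -1.26 to 1.35. For HOXA10 and HOXA11, dim on all 8, no fold is given.

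**Figure D4:**
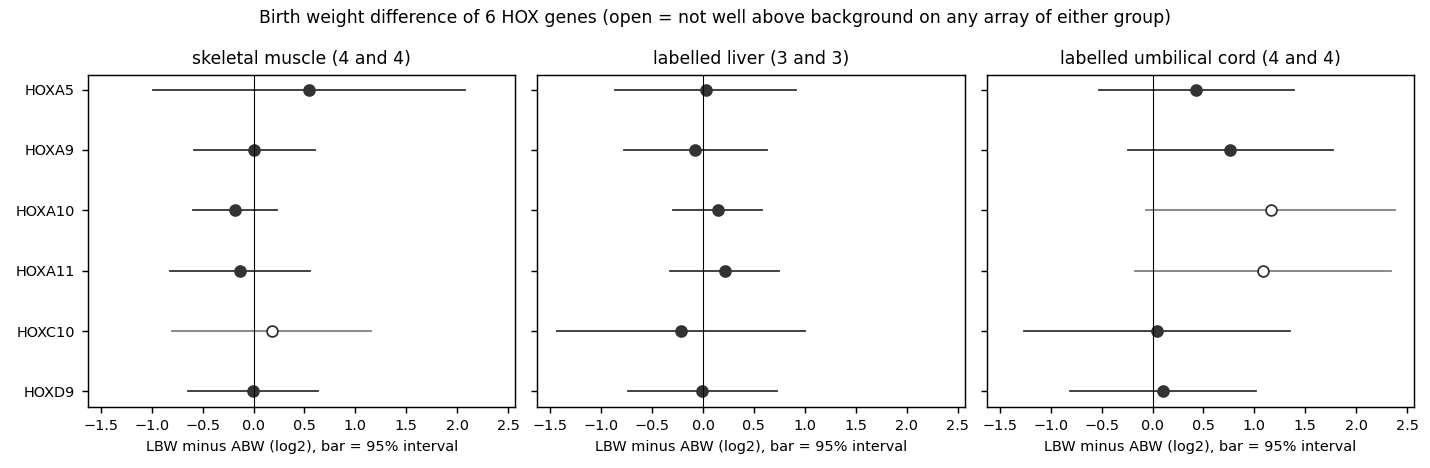
LBW minus ABW difference (horizontal axes, log2) of the 6 HOX genes in the 3 labels, with bars for the 95% interval of the limma fit. Open points are genes not well above background on any array of either group. All bars include 0, and the widest of a gene measured on all its arrays is that of HOXA5 in muscle, from -0.99 to 2.08.

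Among the 24 other HOX genes kept, 0 were called for birth weight in any label, and the count at an unadjusted p under 0.05 was 7 in muscle, all higher in LBW, 1 on the liver-labelled arrays and 1 on the cord-labelled arrays, against 14.7%, 5.99% and 8.94% of all probes. That direction was common in muscle, where LBW was higher for 1474 of the 1803 probes whose groups did not overlap. HOXB13, which the study lists, and HOXD13, a gene of the digits and the genital region that was singled out after its values were seen, had the largest differences in muscle. HOXB13 lay at -4.40, -4.40, -4.32 and -4.08 on the ABW arrays and at -2.80, -2.77, -2.80 and -2.88 on the LBW arrays. The groups did not overlap, as for 8.61% of all probes in this direction, and differed by 1.49 ± 0.16 (SE) with an adjusted p of 0.0603 and an exact permutation p of 0.0286. HOXD13 was not well above background on any of the 4 ABW arrays, at -6.55, -7.12, -7.05 and -6.88, and was above it on all 4 LBW arrays, at -5.14, -5.32, -4.79 and -5.76, which is at least 2.90-fold higher (adjusted p 0.0823).

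Both genes thus missed the threshold on the limma adjusted p, and their ABW and LBW arrays of muscle lay on different slides. The study lists HOXB13 as raised in LBW muscle by its t-test. At the p and fold threshold of that test 4 of 24 other HOX genes passed in muscle, all higher in LBW, HOXB13 and HOXD13 among them. After Benjamini-Hochberg adjustment 0 did. A p under 0.05 in that test, without the fold threshold, was reached by 1922 of 17117 probes. Over the alternatives the adjusted p of HOXB13 ran from 0.0336, with a floor on dim signals, to 0.371, with normexp background correction, and that of HOXD13 from 0.0611 to 0.598. On the liver-labelled arrays HOXD13 lay at -6.06 to -5.08 in ABW and at -6.27 to -5.31 in LBW, and its interaction of birth weight with tissue label had an adjusted p of 0.0607. HOXB13 had an interaction adjusted p of 0.416. The matrix and stromal list had a mean level of 1.68 to 2.68 on the ABW muscle arrays and of 1.11 to 1.89 on the LBW muscle arrays, lower in LBW at 11 of 11 genes with 0 of them called. The hepatocyte list overlapped between them, at -6.28 to -1.11 and -6.35 to -2.14. The part of either list in the HOX values was not tested.

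**Figure D5:**
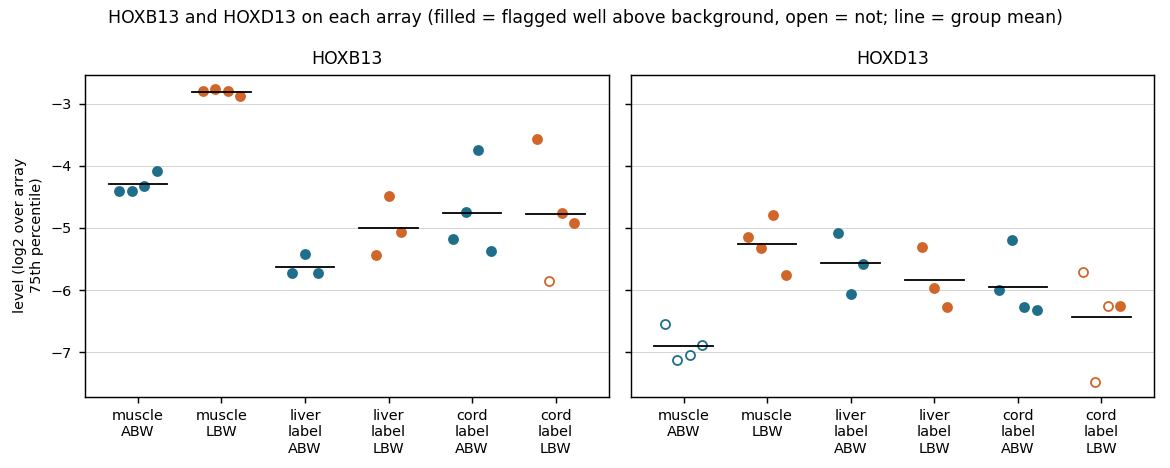
Level of HOXB13 and HOXD13 (vertical axes, log2 over the array's 75th percentile) on each of the 22 arrays by group, with filled points above background, open points not, and group means as lines. In muscle the LBW arrays of HOXB13 lie at -2.88 to -2.77 above the ABW arrays at -4.40 to -4.08, and those of HOXD13 at -5.76 to -4.79 above -7.12 to -6.55, with ABW and LBW of muscle on different slides.

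The profile of each gene over the 22 arrays was set against all other kept probes by root mean square distance between centred levels. The closest probe of another accession lay at 0.29 for HOXD9, at 0.58 for HOXC10, at 0.63 for HOXA5, at 0.72 for HOXA10, at 0.81 for HOXA9 and at 0.95 for HOXA11. None of the 3 closest probes of any of the 6 carried an accession of the HOX genes listed here, and the sources used here pair none of them with a symbol. Whether any of them measures a HOX gene was not tested.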

How the data were processed

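Cy3-labelled cRNA made from total RNA was hybridized to 22 Agilent rhesus arrays of 1 colour. The authors deposited the scanner files, whose intensity columns hold, per the file headers, Feature Extraction (10.1.1.1, or 10.5.1.1 on 1 slide) signals after background subtraction, unscaled, on a design of build rheMac2. The authors made a second table of log2 values, scaled to the 75th percentile and baseline transformed in GeneSpring before it was deposited. Each probe of it is centred on a median per label (median correlation with the scanner values 0.995 to 0.998), and its direction is that of the scanner values.

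Both spots of a probe, outlier-flagged spots left out, were averaged on the signal scale, and the log2 75th percentile of the array was subtracted from the log2 average. A probe was kept if it was flagged well above background on 75% or more of the arrays in 1 or more of the 6 groups. LBW was compared with ABW within labels, and labels in a fit of all groups, with limma 3.58.1 and statmod 1.5.0 (R 4.3.3; Python 3.11.15 with pandas 2.3.3, scipy 1.17.1 and numpy 2.4.6) and Benjamini-Hochberg adjustment over the 17117 probes. Intervals are 95% intervals. Labels do not say that arrays are separate animals in each case, so p-values measure the spread between arrays, and the number of arrays limits the precision. On simulated data 133 of 200 probes changed by 2 on the log2 scale were recovered in the muscle birth weight comparison, with 6 false calls, and 179 with 9 between muscle and liver label.

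Named were the 6 genes, list members with an adjusted p under 0.05 in a tissue comparison, and HOXB13. HOXC12, HOXD12 and HOXD13 lie outside this rule and were named after their values were seen. Of the gene lists, 2 genes are not reported here. The genes and lists were chosen with earlier results of these data known. Symbols outside the set of 10, markers included, were paired with accessions from knowledge of human RefSeq and are open to error. Alternatives covered background correction, scaling, the filter, a floor, averaging per accession, the test, the authors' values, slide, replicate number, 1 birth weight group alone, and each array left out.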

Additional observations from a re-analysis of the deposited data

Results flagged for a closer look

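Of 24 sets of 4 arrays tested, 2 held an array far from the other 3, where chance gives about 1 in 20. HOXA9 in umbilical cord LBW replicate 3 lay at -5.93 and the other 3 arrays at -7.55 to -7.28, all of them not well above background. HOXD9 in umbilical cord LBW replicate 1 lay at -3.48 and the other 3 at -4.83 to -4.72, all above background. Before scaling its signal there was 28.2 units, against 17.2 to 28.1 on the other 3. That array had the lowest 75th percentile of all, 315.5, and the part of the scaling was not tested.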

How the results depend on the processing

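The count of the 6 genes called stayed at 0 in all 5 birth weight comparisons under every alternative run. It ranged from 2 to 4 between muscle and the liver-labelled arrays, from 4 to 5 between muscle and the cord-labelled arrays, and from 5 to 6 between the liver-labelled and cord-labelled arrays. Spike-in scaling moved the median of all probes from 0.21 to -0.53, from 0.11 to -1.07 and from -0.13 to -0.58 in these 3 tissue comparisons, and the median birth weight difference in muscle from 0.07 to -0.45. Normexp background correction ended the calls of HOXC10 (adjusted p 0.0977 and 0.0543). The precision of dim genes is limited by their signal over background.

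Uncalled birth weight differences near 0 changed sign as follows, and the cause was not tested. In muscle HOXA9 gave -0.076 scaled to the median, -0.51 with spike-in scaling and -0.0055 with quantile normalization, and HOXD9 0.019 with normexp. On the liver-labelled arrays HOXA5 gave -0.015 with the percentile over probes always above background, HOXD9 0.0121 scaled to the median, 0.0113 with quantile normalization and 0.086 with spike-in scaling, and HOXA9 0.018 with spike-in scaling. With slide as a fixed block, as within slide 3, HOXA9 gave 0.27, HOXA10 -0.047, HOXA11 -0.17 and HOXD9 0.37. On the cord-labelled arrays HOXC10 gave -0.34 with spike-in scaling, -0.42 with quantile normalization and -0.082 when ABW was represented by slide 6 alone, and HOXD9 -0.28 with spike-in scaling.

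In the tissue comparisons, between muscle and the liver-labelled arrays, normexp gave 0.072 for HOXB3 and 0.012 for HOXC13, and spike-in scaling -0.20 for HOXA5, -0.20 for HOXA10, -0.014 for HOXA6, -0.24 for HOXD3 and -0.046 for CTCF. Between muscle and the umbilical cord label, spike-in scaling gave -1.14 for HOXC10, -0.23 for HOXB3, -0.19 for HOXB9, -0.37 for HOXC8, -0.32 for PBX3, -0.10 for CDX1, -0.013 for BMI1 and -0.47 for CTCF. HOXC10 also gave -0.025 with the percentile over probes always above background and -0.0195 in the ABW arrays alone. Between the labels liver and umbilical cord, normexp gave -0.087 for HOXD3, -0.14 for CDX1 and -0.16 for TBX5.

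With each array left out in turn, the muscle birth weight difference ranged from -0.0885 to 0.98 for HOXA5, from -0.13 to 0.16 for HOXA9, from -0.35 to 0.074 for HOXA11 and from -0.20 to 0.17 for HOXD9. On the liver-labelled arrays it ranged from -0.34 to 0.40 for HOXA5, from -0.33 to 0.12 for HOXA9, from -0.63 to 0.39 for HOXC10 and from -0.27 to 0.20 for HOXD9, and on the cord-labelled arrays from -0.45 to 0.62 for HOXC10 and from -0.22 to 0.30 for HOXD9. HOXC10 in muscle against the umbilical cord label ranged from -0.20 to 0.33.

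Deviations of same-numbered arrays correlated at a median of 0.021 (-0.22 to 0.30, 11 pairs) between birth weight groups. Between labels the median was -0.026 (-0.29 to 0.38, 20 pairs). For arrays of unlike number the medians were 0.0056 and 0.0061. These values cannot show whether equal numbers mark 1 animal, since tissues of 1 animal need not share deviations. With the replicate number as a block 0 of 6 genes were called for birth weight and 4, 5 and 6 in the 3 tissue comparisons, HOXA10 being called between muscle and liver label (0.72, adjusted p 0.0442).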
